A study of Homo sapiens with 8 samples.

Results

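LSD1 occupancy was measured by CUT&RUN at 3 Wnt pathway genes, WNT5A, WNT10B and CXXC4, in human MDA-MB-231 breast cancer cells, a triple-negative line, with and without the corepressor RCOR2. The genes were taken as hg19 windows of 42 kb (WNT5A, chromosome 3, 55490 to 55532 kb), 27 kb (WNT10B, chromosome 12, 49349 to 49376 kb) and 48 kb (CXXC4, chromosome 4, 105379 to 105427 kb). They were chosen because the study measured their transcripts beside RNF43 in RCOR2 knockout cells, and not for any LSD1 value, and the question is whether LSD1 lay at them and how its rank compared between the genotypes. The 4 deposited lists hold 28 summits in these windows out of 201526 in all. A summit is the single base of highest signal in a peak. Summits of different lists were joined into a region while neighbours were at most 500 bp apart, which gave 8 regions in the windows out of 68148 on chromosomes 1 to 22 and X.

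The groups were parental cells and RCOR2-KO1 cells, with no treatment listed for either, and in the latter RCOR2 was disrupted by CRISPR/Cas9, with 2 libraries each, made with the same LSD1 antibody. Only the KO1 line is represented, so an effect of RCOR2 loss and a property of that line cannot be told apart. The methods mention that knockout clones were mixed but leave unclear whether this holds for KO1. The lists held 47354 and 54467 summits in parental replicates 1 and 2 and 49586 and 50119 in KO1 replicates 1 and 2. RCOR2 protein or transcript is not measured by this assay, and the knockout was not checked here.

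LSD1 (KDM1A) removes methyl groups from lysine 4 of histone H3, a mark of active promoters and enhancers, and acts within CoREST complexes that RCOR proteins scaffold together with HDAC1 or HDAC2. WNT10B is a secreted ligand that activates canonical Wnt/β-catenin signaling, whereas WNT5A is best known for β-catenin-independent signaling and cell migration. CXXC4, also called IDAX, is a CXXC zinc finger protein that binds Dishevelled and restrains Wnt/β-catenin signaling. RNF43, used here for comparison, is a membrane E3 ubiquitin ligase that removes Frizzled receptors from the cell surface.

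The promoters of WNT5A and CXXC4 are shown because they are the regulatory sequences of members for which bases could be read. They come from the RefSeq promoter table for GRCh38.p14, which matched 2 of the 3 genes and has no WNT10B entry, and each is the 250 bases before an annotated start on the minus strand. CpG dinucleotides, the sites of DNA methylation, are in capitals. The summit positions are in hg19, so the sequences were not placed against the summits.
WNT5A, upstream start, chr3:55487307-55487556: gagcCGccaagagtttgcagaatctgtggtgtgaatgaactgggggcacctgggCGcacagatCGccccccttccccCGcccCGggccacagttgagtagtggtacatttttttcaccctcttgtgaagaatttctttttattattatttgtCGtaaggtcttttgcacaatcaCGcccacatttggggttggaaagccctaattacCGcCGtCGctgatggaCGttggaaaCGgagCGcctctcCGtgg
WNT5A, downstream start, chr3:55481399-55481648: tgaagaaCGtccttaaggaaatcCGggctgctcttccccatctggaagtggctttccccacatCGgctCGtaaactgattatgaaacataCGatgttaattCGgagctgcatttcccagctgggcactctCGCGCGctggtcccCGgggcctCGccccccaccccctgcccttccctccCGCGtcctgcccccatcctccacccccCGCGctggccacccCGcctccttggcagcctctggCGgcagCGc
CXXC4, chr4:104494895-104495144: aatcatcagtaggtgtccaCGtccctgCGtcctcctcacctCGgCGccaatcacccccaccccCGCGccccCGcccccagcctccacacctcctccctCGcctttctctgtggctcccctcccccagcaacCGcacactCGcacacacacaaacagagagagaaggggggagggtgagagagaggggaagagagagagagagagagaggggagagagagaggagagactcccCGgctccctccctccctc
The upstream WNT5A promoter held 14 CpGs and had a GC content of 52.8%, the downstream one held 18 CpGs at 64.4% GC, and that of CXXC4 held 11 CpGs at 65.2% GC. The median over the 35116 promoters of this length in the table was 11 CpGs and 58% GC, and 44.8%, 36.8% and 50.3% of them, in the same order, had at least as many CpGs. All 3 sequences were therefore near the middle of human promoters in CpG number. The E-box CACCTG, the motif of the SNAI transcription factors, was searched on both strands. The upstream WNT5A promoter had 1 match, the downstream WNT5A and CXXC4 promoters had none, and 17.5% of all promoters had at least 1. A match is a description of the letters only.

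**Figure D1:**
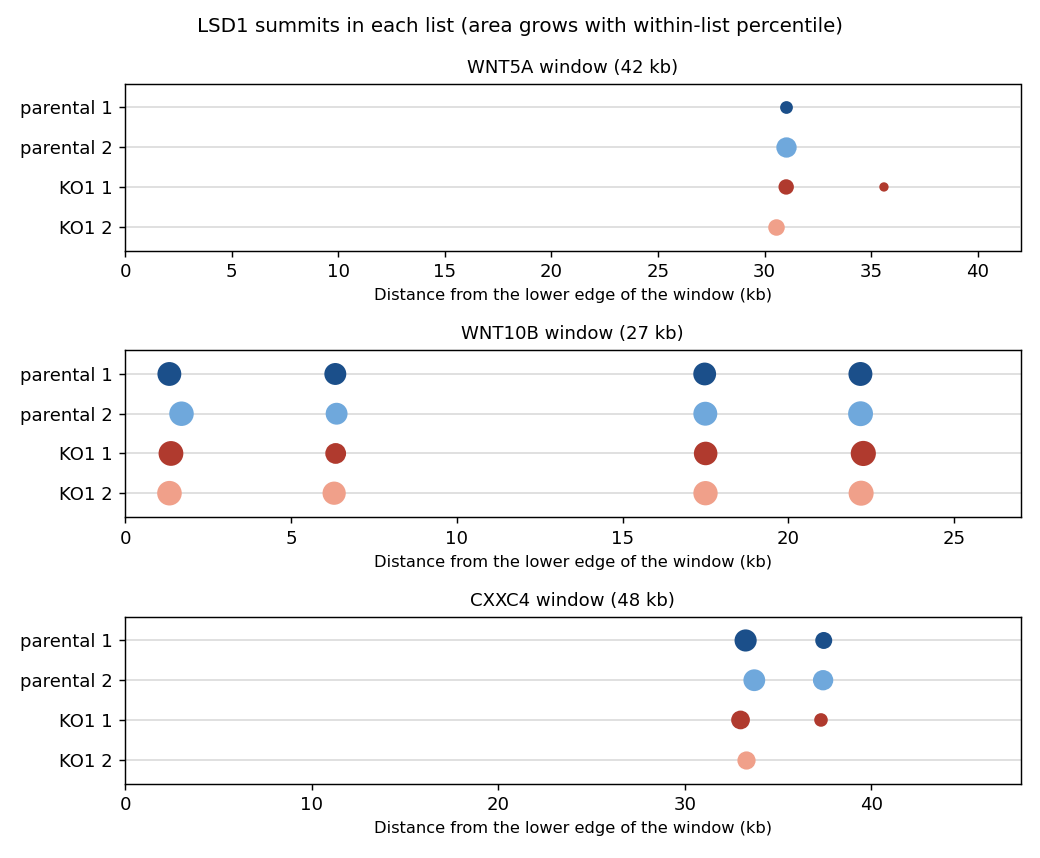
LSD1 summits in the 3 windows. Each row is 1 deposited list, the x axis is the distance from the lower edge of the window in kb, and the area of a point grows with the within-list percentile of the summit. All 4 lists had 4 summits in the WNT10B window, 1 place in the WNT5A window was occupied in all 4, and the upper CXXC4 summit was missing in KO1 replicate 2.

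The windows differed in how much LSD1 they carried. In the WNT10B window, each of the 4 lists had 4 summits, and they formed 4 regions that were each found in all 4 lists. The WNT5A window had 1 summit in each parental list, 2 in KO1 replicate 1 and 1 in KO1 replicate 2. The CXXC4 window had 2 summits in each parental list, 2 in KO1 replicate 1 and 1 in KO1 replicate 2. Of the 8 regions, 6 were found in all 4 lists, against 52.6% of all regions in the genome. The mean number of summits differed between KO1 and parental cells by 0.5 at WNT5A, 0 at WNT10B and -0.5 at CXXC4 (exact permutation test, two-sided, p = 1 for each). With 2 libraries against 2 the smallest p that this test can give is 0.333, so no comparison here could pass 0.05.

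The strength of a summit was read from the peak caller's −log10 value, which is a p or q value and rises with the depth of a library. It was compared between libraries only as a percentile, the share of the summits of its own list at or below it, so that a higher percentile is a stronger summit. The depth of the libraries is unknown. Among the regions found in all 4 lists, replicates of the parental cells differed by a median of 9.13 percentile points and those of KO1 cells by 9.13.

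**Figure D2:**
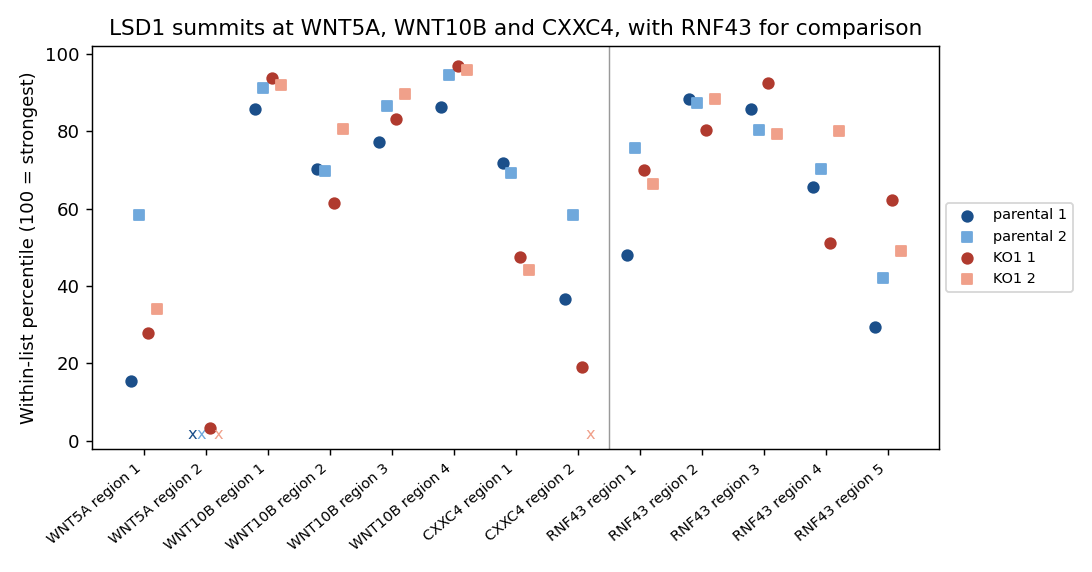
Within-list percentile of each LSD1 region at the 3 Wnt genes and, right of the line, at RNF43. Each point is 1 library, blue for parental and red for KO1, with circles for replicate 1 and squares for replicate 2, and x marks a library with no summit. CXXC4 region 1 is the region with the widest gap between the genotypes, at 71.8 and 69.1 against 47.4 and 44.0.

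CXXC4 carried the largest difference between the genotypes among the members. Its first region lay on chromosome 4 between 105411992 and 105412730, and its −log10 values were 31.5 and 33.1 in parental replicates 1 and 2 against 16.3 and 13.7 in KO1 replicates 1 and 2. The percentiles were 71.8 and 69.1 in parental cells and 47.4 and 44.0 in KO1 cells, so both KO1 libraries were below both parental ones. The mean percentile (± SD, n = 2 libraries) was 70.4 ± 1.96 for parental and 45.7 ± 2.37 for KO1 cells. The difference of -24.8 points was larger than the gap between replicates in either genotype, 2.77 and 3.35 points (two-sided exact permutation test, p = 0.333). In the genome, 22.4% of the 35861 regions in all 4 lists had both KO1 libraries below both parental ones. The lack of overlap alone is therefore common, whereas 4.99% of these regions had a difference at or below that of CXXC4, and 4.85% had such a difference together with no overlap. These shares hold for a single region in 1 direction. The CXXC4 region was singled out as the most extreme of the 6 shared regions in the windows, so the shares overstate how unusual it is. On another scale, log2 of the −log10 value over the median of its list, the difference was -1.03, and 6.09% of the shared regions were at or below it.

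The summits of this CXXC4 region were spread over 738 bp, against a median of 103 bp for regions in all 4 lists, and only 0.424% of these regions were as wide or wider. The summits of parental replicate 1 and KO1 replicate 2 were 1 base apart, at 105412264 and 105412265. The summit of KO1 replicate 1 lay below them, at 105411992, and that of parental replicate 2 above them, at 105412730. The region therefore joins summits that did not sit at 1 place, although each list had a single summit there. With a joining distance of 250 bp it was no longer 1 region in all 4 lists. The comparison of the strongest summit in the window does not depend on the joining, but it uses these same summits and so gives the same values. It does not show that they mark 1 site.

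The second CXXC4 region lay between 105416305 and 105416452, 4.02 kb from the first. Its −log10 values were 12.2 and 23.8 in parental replicates 1 and 2 and 6.97 in KO1 replicate 1, and no summit was listed in KO1 replicate 2. The percentiles were 36.6 and 58.2 in parental cells, 47.4 ± 15.3 (mean ± SD, n = 2), and 19.1 in KO1 replicate 1. The single KO1 value was thus below both parental ones. This region and the first were read in the same libraries, so they are not independent results. The parental replicates of the second region were 21.6 points apart, so its level in parental cells is loosely known. The nearest summit of KO1 replicate 2 was 4.11 kb away, in the first region. Over the genome, 5.89% of regions were found in both parental lists and in 1 KO1 list. A missing summit says that the peak did not reach the authors' threshold in that library, not that LSD1 was absent.

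The WNT10B window was the most strongly occupied of the 3. Its 4 regions lay on chromosome 12 between 49350335 and 49350701, 49355304 and 49355378, 49366477 and 49366506, and 49371173 and 49371260, with spacings of 4.82, 11.2 and 4.73 kb between them. Such a density is uncommon: of 112346 adjoining tiles of 27 kb across the chromosomes, 492 (0.438%) held at least 4 regions of all 4 lists. The tiles were not matched for gene content, so this share does not compare the window with other windows placed on genes. The summits of the third region lay within 29 bp of each other in the 4 lists, whereas those of the first were spread over 366 bp because of parental replicate 2.

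The strongest of them was the fourth region. Its −log10 values were 49.8 and 86.6 in parental replicates 1 and 2 and 94.6 and 76.6 in KO1 replicates 1 and 2. The percentiles were 86.3 and 94.5 in parental cells and 96.9 and 95.9 in KO1 cells, so both KO1 libraries were above both parental ones. In KO1 replicate 1 it ranked 1549 from the top of 49586 summits. The mean percentile (± SD, n = 2 libraries) was 90.4 ± 5.74 for parental and 96.4 ± 0.696 for KO1 cells, a difference of 5.99 points that was smaller than the 8.11 points between the parental replicates (exact permutation test, two-sided, p = 0.333).

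The first WNT10B region was of like strength, with percentiles of 85.8 and 91.2 in parental and 93.7 and 92.0 in KO1 cells. Here too both KO1 libraries were above both parental ones, by 4.36 points on average, with a gap of 5.37 points between the parental replicates (exact permutation test, two-sided, p = 0.333). In the genome 19.6% of the regions of all 4 lists had both KO1 libraries above both parental ones, so 2 of 4 regions is a count over few regions and not a separate result. In both regions parental replicate 1 was the lowest of the 4 libraries, and without it the differences were 1.68 and 1.93 points.

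The other WNT10B regions overlapped between the genotypes. The second had percentiles of 70.2 and 69.7 in parental cells and of 61.5 and 80.6 in KO1 cells, so the KO1 replicates lay on either side of the parental ones and the difference was 1.06 points. The third had 77.1 and 86.4 in parental and 83.1 and 89.6 in KO1 cells, a difference of 4.62 points (exact permutation test, two-sided, p = 0.667). Over the 4 regions the mean percentile was 82.7 in parental and 86.7 in KO1 cells. WNT10B lies between ARF3, which encodes a small GTPase of the Golgi, and WNT1, another canonical Wnt ligand, in the gene order of RefSeq on GRCh38.p14. No annotation of hg19 was used, and summits in the outer parts of the window may lie nearer to these genes than to WNT10B.

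The WNT5A window was the weakest of the 3 and the one whose parental replicates differed most. Its only region in all 4 lists lay on chromosome 3 between 55520526 and 55521009. The −log10 values were 6.66 and 24.0 in parental replicates 1 and 2 and 9.45 and 10.6 in KO1 replicates 1 and 2. The percentiles were 15.5 and 58.3 in parental and 27.9 and 34.1 in KO1 cells, so both KO1 libraries lay between the parental ones. The mean percentile (± SD, n = 2 libraries) was 36.9 ± 30.3 for parental and 31.0 ± 4.36 for KO1 cells, a difference of -5.89 points (exact permutation test, two-sided, p = 1). The parental replicates were 42.8 points apart, and 1.51% of the regions of all 4 lists had parental replicates that far apart or farther. Parental replicate 2 decided the direction: without it, KO1 cells were 15.5 points higher, and without parental replicate 1 the difference was -27.3.

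In 3 of the lists the WNT5A summit was at nearly the same base, at 55520995, 55520985 and 55521009, while that of KO1 replicate 2 lay at 55520526. A second WNT5A region consisted of 1 summit in KO1 replicate 1, at 55525595, with a −log10 value of 3.70 and a percentile of 3.38. It was 4.83 kb from the first region, and the nearest summits of the other lists were those of the first region, 4.60 to 5.07 kb away. Of all regions in the genome, 21.7% were found in 1 list only. In RefSeq, WNT5A and CXXC4 each overlap an antisense noncoding gene, WNT5A-AS1 and CXXC4-AS1, and a summit list carries no strand that could tell a gene from its antisense partner.

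**Figure D3:**
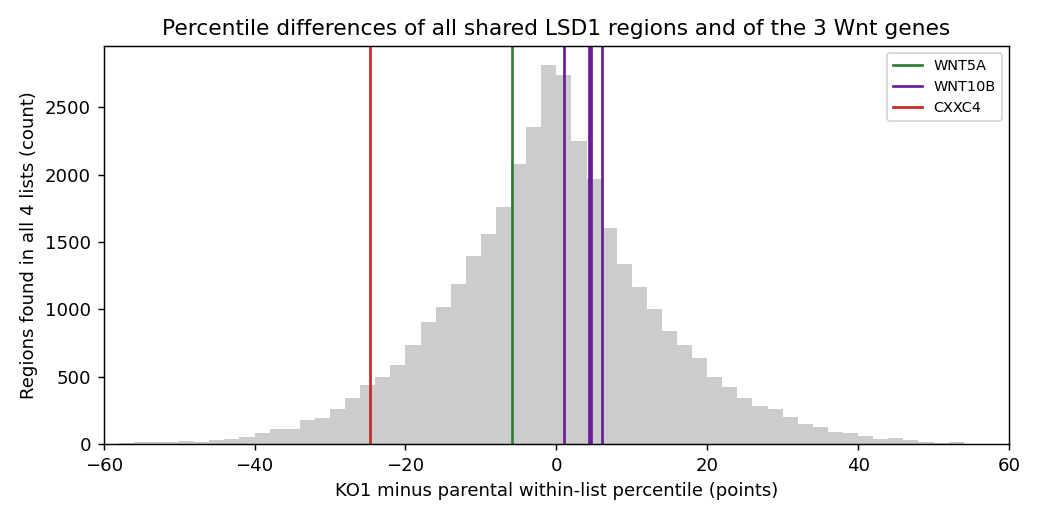
KO1 minus parental percentile for the 35861 regions in all 4 lists (grey bars, count per 2 points, x axis cut at 60 points either way), with a line for each of the 6 such regions of the 3 genes. CXXC4, at -24.8, lies at the 5th percentile of all regions (-24.7), and the WNT5A and WNT10B regions lie between -5.89 and 5.99.

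Read against all regions in the 4 lists, whose differences had a median of -0.578 and 5th and 95th percentiles of -24.7 and 24.0, the WNT5A region and the 4 WNT10B regions lay well inside these limits. Differences at or below theirs were found at 32.7% of regions for WNT5A and at 57.0% to 72.0% for WNT10B. Percentiles leave little room near the top of a list, where WNT10B region 4 lay. On the log2 scale its difference was 0.46, with 80.2% of shared regions at or below it, against 36.0% for WNT5A and 55.8% to 71.0% for the other WNT10B regions. By mean percentile over the 4 libraries, the CXXC4 region was close to the middle of the shared regions (47.6% at or below it) and the WNT5A region was weaker (17.3%), while the WNT10B regions ranged from 63.5% to 93.1%.

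The regions around the genes did not move as a block. Within 1 Mb of the centre of the CXXC4 window there were 9 other regions in all 4 lists, and their differences ran from -26.3 to 16.5 points with a median of 2.50. In 4 of these 9 both KO1 libraries were below both parental ones, and in 4 they were above, against 22.4% and 19.6% of all shared regions. Lack of overlap between the genotypes was thus not particular to the CXXC4 region in this neighbourhood. The nearest, 247 kb from the centre, had a difference of -12.8. Over the whole stretch of 10 Mb that holds CXXC4, 76 regions of all 4 lists had a median difference of 0.0283, and relative to it the CXXC4 difference was -24.8. The difference is therefore as large when measured against that stretch of chromosome 4.

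Around WNT10B, 39 other shared regions within 1 Mb had a median difference of -2.66, equal to the median of the 113 regions in its stretch of 10 Mb. All 4 WNT10B regions were above this level, by 3.72 to 8.64 points. A median has as many regions above it as below, and the 4 regions were read in the same libraries, so this is not a separate result. Around WNT5A, 10 other shared regions had a median of 1.84 and ran from -27.6 to 33.1, while the 169 regions in its stretch of 10 Mb had a median of -1.94. The largest of the 10 was the one nearest to the gene, 95.2 kb from the centre of the window.

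**Figure D4:**
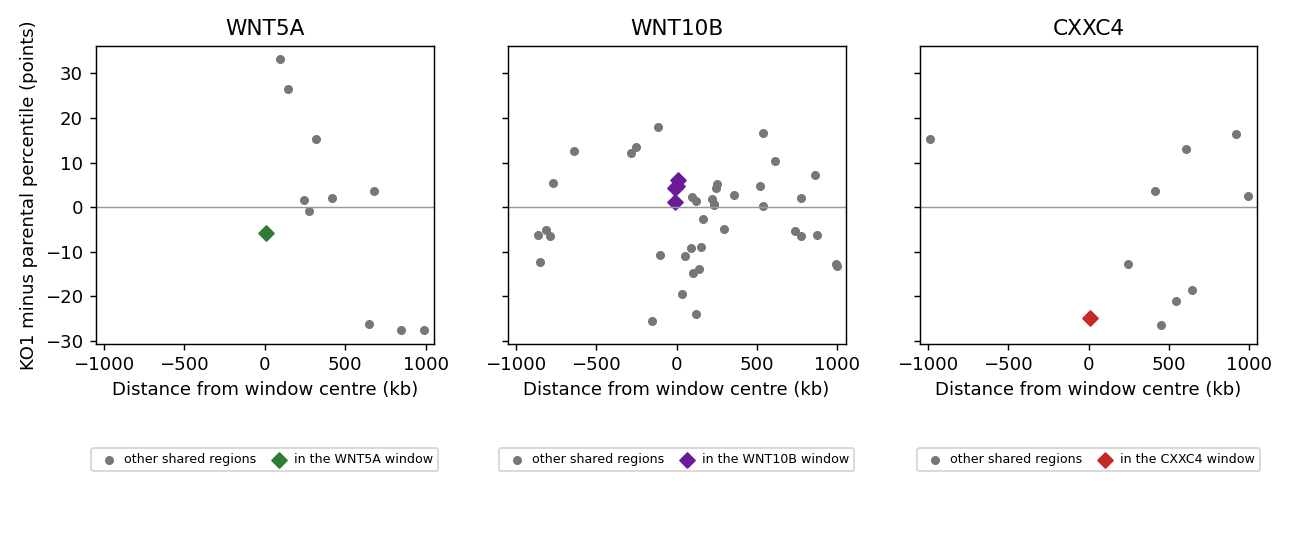
KO1 minus parental percentile of regions in all 4 lists (y axis, points) by distance from the centre of the WNT5A, WNT10B and CXXC4 windows (x axis, kb, 1 Mb either way). Grey points are other regions and diamonds are regions in the window; the CXXC4 region at -24.8 stands among neighbours from -26.3 to 16.5.

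RNF43 was read in the same way for comparison, in a window of 84 kb on chromosome 17 whose 5 regions were each found in all 4 lists. The differences at these regions, in order of position, were 6.33, -3.47, 2.72, -2.28 and 19.9 points. The genotypes overlapped at the first 4, while at the last, between 56494975 and 56495055, both KO1 libraries were above both parental ones (exact permutation test, two-sided, p = 0.333), and 92.3% of the regions of all 4 lists had a difference at or below it. Both KO1 libraries were above both parental ones at 19.6% of all regions in all 4 lists, so 1 of 5 regions is near that share. The highest percentile in the window was 88.3 and 87.2 in parental and 92.3 and 88.3 in KO1 cells, higher than at CXXC4 and WNT5A in each of the 4 lists. The RNF43 window is longer and holds 5 shared regions against 1 each at CXXC4 and WNT5A, which favours a higher maximum. The highest percentile belonged to the second region in 3 lists and to the third, 3.67 kb away, in KO1 replicate 1, where the second stood at 80.3, so the highest percentiles were not compared between the genotypes as 1 site. Whether the difference at CXXC4 exceeds that at RNF43 was not tested.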

How the data were processed

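LSD1 was profiled by CUT&RUN in 4 libraries, and the design text names 4 rabbit IgG libraries as the input of the authors' analysis. They may thus enter each score through peak calling, and no separate IgG values were analysed here. Per the labels, the processing notes name FastQC 0.11.2, Bowtie2 2.3.3.1, Picard and MACS2 2.1.0 and the build hg19. The authors called peaks in each library and deposited 1 summit per peak with a −log10 score (of a p-value or a q-value, which the files do not say). The lowest per list was 1.31 to 1.40. The depth and the widths of the peaks were not used here.

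The tools were scipy 1.17.1, numpy 2.4.6, pandas 2.3.3 and Python 3.11.15. Percentiles were ranks within a list, and a region took its highest summit in each list. Positions are 1-based. Genotypes were compared by exact permutation tests over libraries, as differences of KO1 minus parental. Differences of regions in all 4 lists were set against their median in stretches of 10 Mb. The steps were tested on simulated lists. The labels do not state separate cultures, so a p-value measures the spread between libraries, which may be technical.

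The windows, RNF43 and the tests were chosen with earlier results of these data known. All regions in the windows are described. Alternatives were other joining distances, windows, list lengths and scales, each library left out, and a replicate block. The sequence under the summits and their place relative to exons need an hg19 genome and are not given.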

Additional observations from a re-analysis of the deposited data

How the results depend on the processing

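The strongest CXXC4 summit was lower in KO1 cells in all 11 alternatives that gave a value. With all libraries the difference was -24.8 to -29.2 percentile points (-1.03 on the log2 scale). The strongest summit in the WNT10B window was higher in all 12, at 4.62 to 8.64 points with all libraries (0.46 on the log2 scale). Ranked within the stronger 50% the WNT10B difference was 11.99, but that ranking stretches differences by construction. Trimming or widening the window and the replicate block returned the unchanged CXXC4 value. Widening and the block returned the unchanged WNT10B value, so these alternatives add no support. For both of these summits the KO1 values lay wholly on 1 side of the parental ones. Leaving out a library could therefore not reverse the direction. The other alternatives mostly re-ranked or rescaled the same scores, so the counts of 11 and 12 are not separate evidence. The 4.62 is the value of the third region (exact permutation test, p = 0.667), since trimming the window by 5 kb on each side removes the first and the fourth. With each library left out in turn, the ranges were -26.4 to -23.1 for CXXC4, 1.93 to 10.0 for WNT10B and -27.3 to 15.5 for WNT5A, which was reversed at 15.5 without parental replicate 2. Of the single WNT10B regions, the second was reversed at -8.45 without KO1 replicate 2 (range -8.45 to 10.6) and the third at -0.0137 without parental replicate 1 (range -0.0137 to 9.26). The difference in summit number at WNT5A, 0.5, became -0.5 with the stronger 50%. It was 0 with lists cut to equal size, which removes the weak summit of KO1 replicate 1 by construction. At CXXC4 the stronger 50% moved it from -0.5 to -1.5 (exact permutation test, p = 0.333). That cut drops all KO1 summits there by construction, so it adds no evidence. Leaving out single libraries, the difference was 0 to 1 at WNT5A, -1 to 0 at CXXC4 and 0 at WNT10B. Regions in the windows found in all lists numbered 3 instead of 6 when summits were joined at 250 bp, because the first WNT10B, the WNT5A and the CXXC4 regions came apart, and 6 to 7 with each library left out. No percentile in the upper 50% was computed for WNT5A or CXXC4, since a library had no summit there.

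With a replicate block, the differences of the strongest summits were -5.89, 5.99 and -24.8 for WNT5A, WNT10B and CXXC4, equal to the unblocked ones by construction, with a smallest p of 0.5. The replicate numbers do not pair the libraries: the differences between replicates in the 2 genotypes had a correlation of 0.00722 across shared regions. The block changed no call.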
